A study of Mus musculus with 6 samples.

Results

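Skeletal muscle contractile and metabolic genes were followed across 6 tumors of the mouse colorectal carcinoma line CT26. The set was taken by symbol from the deposited count table, which held all 40 listed genes among its 23122, and groups them as 12 fast fiber genes, 4 slow fiber genes, 12 sarcomere genes of both fiber kinds, 6 genes of calcium release and uptake and 6 of energy and oxygen supply. The tumors grew under the skin of female BALB/c mice aged 6 to 8 weeks, and treatment began at a volume of 100 to 200 mm3. Of the 6 tumors, 3 came from animals given vehicle and 3 from animals given TP-18 at 50 mg/kg by mouth once a day for 3 weeks. The series title describes TP-18 as an antagonist of the prostaglandin E2 receptors EP2 and EP4. The labels name no genetic alteration of the line or the mice, and the series title calls the tumors syngeneic, grown in the line's own strain. The labels do not state that each tumor came from a separate animal, so p-values cover the spread between these samples only.

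Skeletal muscle fibers contract when thick filaments of myosin slide along thin filaments of actin within the sarcomere. The nerve signal reaches the myosin by way of calcium, which the sarcoplasmic reticulum releases and takes back and which acts through the troponin complex on the thin filament. Fast and slow fibers build the same machine from different isoforms of myosin, troponin and calcium pump, and a muscle is typed by the mix it holds. Colorectal carcinoma cells are epithelial, and sarcomere genes are not among the transcripts that define them.

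Libraries held 34813482 to 36489081 counts. Apart from Eno3, the muscle genes together took 40.5, 50.1 and 17.6 CPM (the usual library-size unit, before scaling) in vehicle tumors 1, 2 and 3 and 181.5, 102.4 and 212.8 in TP-18 tumors 1, 2 and 3. These sums are small, and the lowest of them rested on 613 reads. Of the epithelial markers used to check the label, Krt20, an intestinal keratin, was abundant at 307 ± 40.5 CPM (SD, n = 3; here and below CPM are scaled between libraries by the TMM method) in vehicle tumors and lower at 203 ± 20.7 CPM in TP-18 tumors (edgeR, adjusted p = 0.0204). This was the only edgeR call among 3 tested of 8 such genes, and it was lost without vehicle 2, TP-18 1 or TP-18 3 (adjusted p = 0.0693 to 0.0827). It was also lost by limma on log2 of the deposited, length-scaled FPKM plus 1 or plus 0.1 (adjusted p = 0.0802 and 0.0782). Cdh1, E-cadherin, measured 1.05, 2.08 and 2.40 CPM in vehicle and 3.52, 3.75 and 5.00 CPM in TP-18 tumors, which do not overlap (log2 change 1.15 ± 0.34, adjusted p = 0.0647). Krt18, a keratin and the remaining tested gene, measured 8.54, 10.4 and 13 CPM in vehicle and 6.02, 7.5 and 4 CPM in TP-18 tumors. It was lower without overlap (log2 change -0.86 ± 0.26, adjusted p = 0.0649). DESeq2 called 1 of the list higher and 2 lower, and limma-voom 1 higher and 1 lower. The keratin genes Krt8 and Krt19 were not tested. They had 41 and 108 reads in vehicle and 19 and 11 in TP-18 tumors, with 94 of the Krt19 reads in vehicle 3. Epcam, Vil1 and Cdx2, other defining genes of intestinal epithelium that, like Cdh1 and Krt18, were singled out after their values were seen, lay between 0 and 0.615 CPM in every tumor. In bulk tissue, fewer cells of a kind and less RNA per cell cannot be told apart.

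The comparison asks which muscle transcripts differed between TP-18 and vehicle tumors. Of the fast fiber genes 7 of 12 and of the shared sarcomere genes 5 of 12 rose in TP-18 tumors, and 0 of 4 slow fiber genes did, of which 1 could be tested. Of the 40 genes, 30 had enough reads to be tested, and 16 of these were called higher at an adjusted p under 0.05, against 7.09% of all tested genes. By edgeR 0 of the 30 were called lower, against 5.26% of all tested genes; 0 were lower at an unadjusted p under 0.05, and DESeq2 and limma-voom also called 0 lower. Every TP-18 tumor lay above every vehicle tumor for 23 of the 30, against 18.0% of all tested genes. The median log2 change of the 30 was 1.98, and that of all tested genes was -0.0084. A gene of low level could enter the test through the TP-18 tumors alone, so these counts describe the set and are no support for a direction. The other 14 tested genes missed the threshold, and 10 had too few reads for a test.

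**Figure D1:**
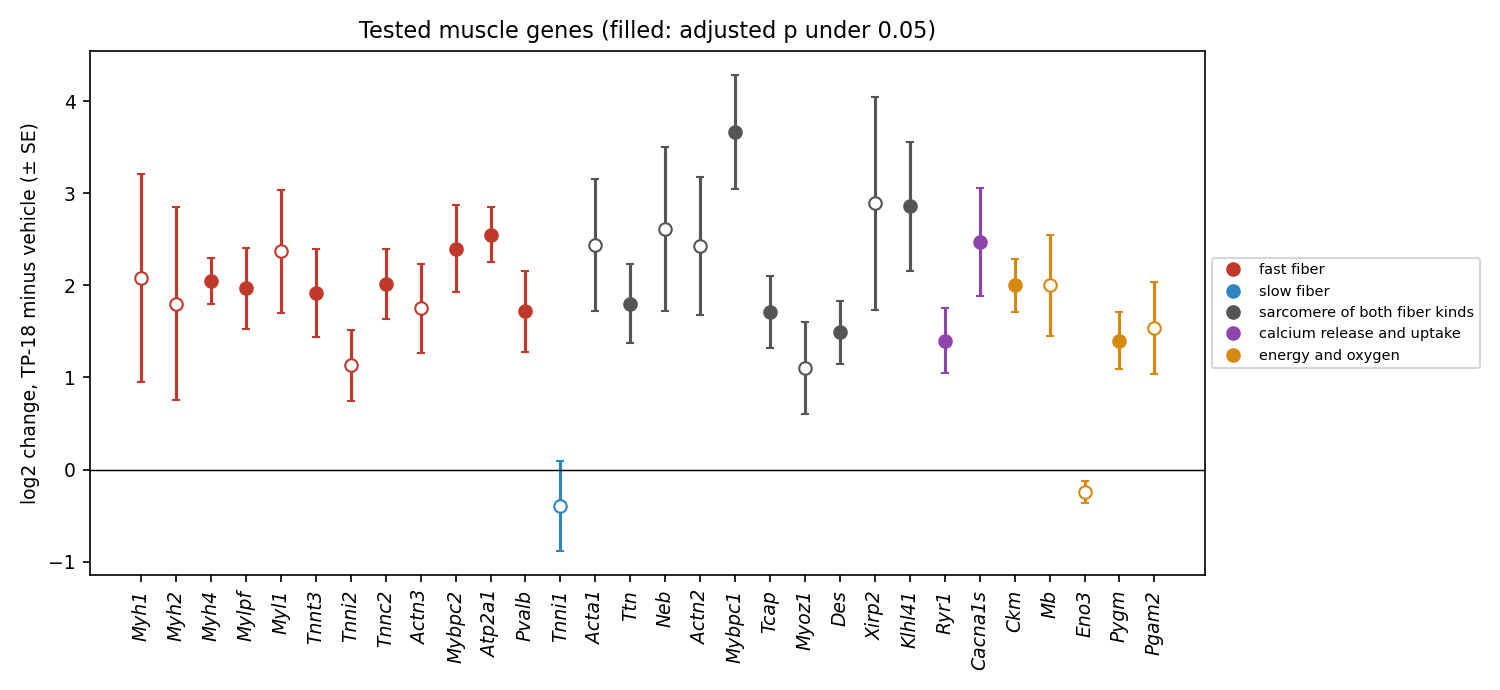
Log2 change (TP-18 minus vehicle, edgeR) with its standard error for the 30 tested muscle genes, colored by role; filled points have an adjusted p under 0.05. The fast fiber genes lie between 1.13 and 2.55, while the slow troponin gene Tnni1 lies at -0.40 and Eno3 at -0.24.

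Among the thin filament genes, Acta1 (Entrez 11459, chromosome 8, 123891758 to 123894775 in GRCm38), the skeletal muscle actin, had the highest FPKM of the set in every TP-18 tumor, at 29.4, 14.7 and 32.5 (fragments per kilobase of gene and library size, the unit used to compare genes). This rank rests on the deposited gene lengths, and in CPM Eno3 was higher than Acta1 in every TP-18 tumor. Acta1 measured 7.40, 11.9 and 1.66 CPM in vehicle tumors 1 to 3 and 44, 22.3 and 47.7 CPM in TP-18 tumors 1 to 3. The groups did not overlap, yet vehicle 3 lay well under the other vehicle tumors, and the log2 change of 2.44 ± 0.72 (SE) had an adjusted p of 0.0882. DESeq2 called the gene (adjusted p = 0.0146) and limma-voom did not (adjusted p = 0.0675). Neb, nebulin, which runs along the thin filament, measured 0.199, 1.68 and 0.156 CPM in vehicle and 4.54, 2.57 and 5.36 CPM in TP-18 tumors. Vehicle 2 stood near the lowest TP-18 tumor, and the adjusted p was 0.106.

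The upstream sequences of 3 muscle genes are shown because genes that move together can be set beside the motifs of muscle promoters. Each run is the 250 bases before the annotated start, 5′ to 3′ on the gene's strand, from RefSeq on GRCm38.p6: Acta1 at chr8:123894776-123895025 (minus strand), Ckm at chr7:19410844-19411093 (plus strand) and Mylpf at chr7:127211358-127211607 (plus strand), the last at a start within the annotated gene. Capitals mark the E-box CAGCTG, the MCAT motif CATTCC and the CArG box, searched on both strands.
Acta1: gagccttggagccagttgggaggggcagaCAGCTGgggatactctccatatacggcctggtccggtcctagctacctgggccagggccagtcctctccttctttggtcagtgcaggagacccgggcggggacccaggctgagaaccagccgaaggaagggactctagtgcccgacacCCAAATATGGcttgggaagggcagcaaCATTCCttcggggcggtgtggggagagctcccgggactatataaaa
Ckm: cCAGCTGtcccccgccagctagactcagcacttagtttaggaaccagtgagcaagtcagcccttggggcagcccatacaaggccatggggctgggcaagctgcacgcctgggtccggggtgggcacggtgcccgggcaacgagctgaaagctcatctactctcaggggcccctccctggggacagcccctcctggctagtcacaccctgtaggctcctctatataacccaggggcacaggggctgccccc
Mylpf: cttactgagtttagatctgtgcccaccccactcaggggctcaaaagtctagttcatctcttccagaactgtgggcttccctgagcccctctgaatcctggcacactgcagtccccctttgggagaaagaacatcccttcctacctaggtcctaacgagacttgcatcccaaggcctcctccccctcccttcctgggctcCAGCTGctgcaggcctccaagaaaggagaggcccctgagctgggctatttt

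The E-box CAGCTG, a form of the CANNTG site bound by myogenic factors of the MyoD family, began 221 bases before the start in Acta1, 249 in Ckm and 51 in Mylpf. Acta1 also held a CArG box, the site of serum response factor, 73 bases before its start and the motif CATTCC, which TEAD factors bind, 46 bases before it. Windows were found for 29 of the 40 genes, taking the first listed for each gene. CAGCTG was in 15 of these 29 (51.7%) and in 12.8% of 27025 windows of all genes, and it is counted within CANNTG, which was in 86.2% and 66.0%. The MEF2 motif was in 7 of the 29 (24.1%) and in 3.01% of all windows, CATTCC in 9 (31.0%) and in 12.6%, and the CArG box in 2 (6.90%) and in 1.40%. Matches describe letters in these windows and were not tested for binding.

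Of the 12 sarcomere genes 10 were tested and 5 rose. Des, desmin, the intermediate filament that ties myofibrils together, rose from 3.95 ± 1.54 to 11.1 ± 3.28 CPM (adjusted p = 0.0329). Ttn, titin, the elastic filament of the sarcomere, measured 1.42, 1.04 and 0.437 CPM in vehicle and 3.58, 2.55 and 4.05 CPM in TP-18 tumors, for a log2 change of 1.80 ± 0.43 (adjusted p = 0.0347). Mybpc1, a myosin-binding protein typical of slow fibers but also made in fast ones, had the largest log2 change among the 30 tested genes at 3.67 ± 0.62 (adjusted p = 0.0118), and its counts were 4, 14 and 2 in vehicle and 97, 69 and 128 in TP-18 tumors. Klhl41, a protein that stabilizes nebulin, rose by 2.86 ± 0.70 on the log2 scale (adjusted p = 0.0385) and Tcap, which caps titin at the Z-disc, by 1.71 ± 0.39 (adjusted p = 0.0293).

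The remaining frame genes missed the threshold or had too few reads. Actn2, an actin crosslinker of the Z-disc, measured 0.346 ± 0.277 and 1.89 ± 0.84 CPM in vehicle and TP-18 tumors (adjusted p = 0.0727). Xirp2, an actin-binding protein of the Xin family, measured 0.398, 0.796 and 0 CPM in vehicle and 2.55, 0.712 and 5.64 CPM in TP-18 tumors, so TP-18 2 fell below vehicle 2 (adjusted p = 0.158). Myoz1, a Z-disc partner of calcineurin, overlapped between the groups (adjusted p = 0.184). Myot, myotilin, had 4, 3 and 0 reads in vehicle and 29, 5 and 45 in TP-18 tumors, and Mybph, a further myosin-binding protein, 3, 1 and 0 against 11, 2 and 25. Both were low in TP-18 2 and were not tested.

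Of the 12 fast fiber genes 7 rose and 5 missed the threshold, with a median log2 change of 2.00, and DESeq2 called 10 and limma-voom 4. Over all 14189 tested genes, edgeR called 1006 higher, DESeq2 1464 and limma-voom 1027. Myh4 (Entrez 17884, chromosome 11, 67237812 to 67260447), the heavy chain of the fastest fibers, type IIb, measured 3.10, 2.33 and 2.81 CPM in vehicle and 14.2, 7.88 and 12 CPM in TP-18 tumors. Its vehicle values were close together, and the log2 change of 2.05 ± 0.25 had an adjusted p of 0.00412. Atp2a1 (Entrez 11937, chromosome 7, 126445858 to 126463103), the calcium pump SERCA1 of fast fibers, measured 1.37, 2.27 and 1.06 CPM in vehicle and 8.84, 8.07 and 10.6 CPM in TP-18 tumors. This was a log2 change of 2.55 ± 0.30 (adjusted p = 0.00362), and TP-18 2 was nearly level with the other treated tumors.

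The fast light chain and troponin genes had wider spread. Mylpf (Entrez 17907), the phosphorylatable light chain of fast myosin, measured 1.91, 2.11 and 1.03 CPM in vehicle and 8.09, 3.15 and 8.56 CPM in TP-18 tumors (adjusted p = 0.0298). TP-18 2 was the lowest treated tumor and still above every vehicle tumor. Tnnt3, fast troponin T, which anchors the complex to tropomyosin, measured 2.36, 2.05 and 0.718 CPM against 8.09, 3.67 and 7.67 CPM (adjusted p = 0.0418). Tnnc2, fast troponin C, the calcium sensor, measured 1.20, 0.582 and 0.656 CPM against 3.36, 2.41 and 4.18 CPM (adjusted p = 0.0171). Tnni2, fast troponin I, the inhibitory subunit, had the smallest estimate of the 12: 2.99, 2.51 and 1.5 CPM in vehicle and 5.97, 2.76 and 6.61 CPM in TP-18 tumors. The groups overlapped, since TP-18 2 lay below vehicle 1 (log2 change 1.13 ± 0.39, adjusted p = 0.0969).

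Mybpc2, the fast myosin-binding protein, rose by 2.40 ± 0.47 (adjusted p = 0.0197) and Pvalb, parvalbumin, a calcium buffer that speeds relaxation, by 1.72 ± 0.44 (adjusted p = 0.0416), the latter with 35 vehicle reads and 131 TP-18 reads. Myl1, the essential light chain of fast myosin, did not overlap between groups but missed the threshold with 1.37, 1.96 and 0.25 CPM against 6.75, 3.53 and 8.28 CPM (adjusted p = 0.0643). Actn3, the fast fiber actinin, was alike in this, with 0.703 ± 0.282 and 2.37 ± 1.08 CPM (adjusted p = 0.0524). Myh1, the type IIx heavy chain, measured 1.05, 6.03 and 0.156 CPM in vehicle and 10.4, 5.50 and 14.8 CPM in TP-18 tumors. Here vehicle 2 exceeded TP-18 2, and the adjusted p was 0.284. Myh2, the type IIa heavy chain, followed the same order with 0.427, 2.30 and 0.0937 CPM against 3.23, 1.23 and 5.38 CPM (adjusted p = 0.304).

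**Figure D2:**
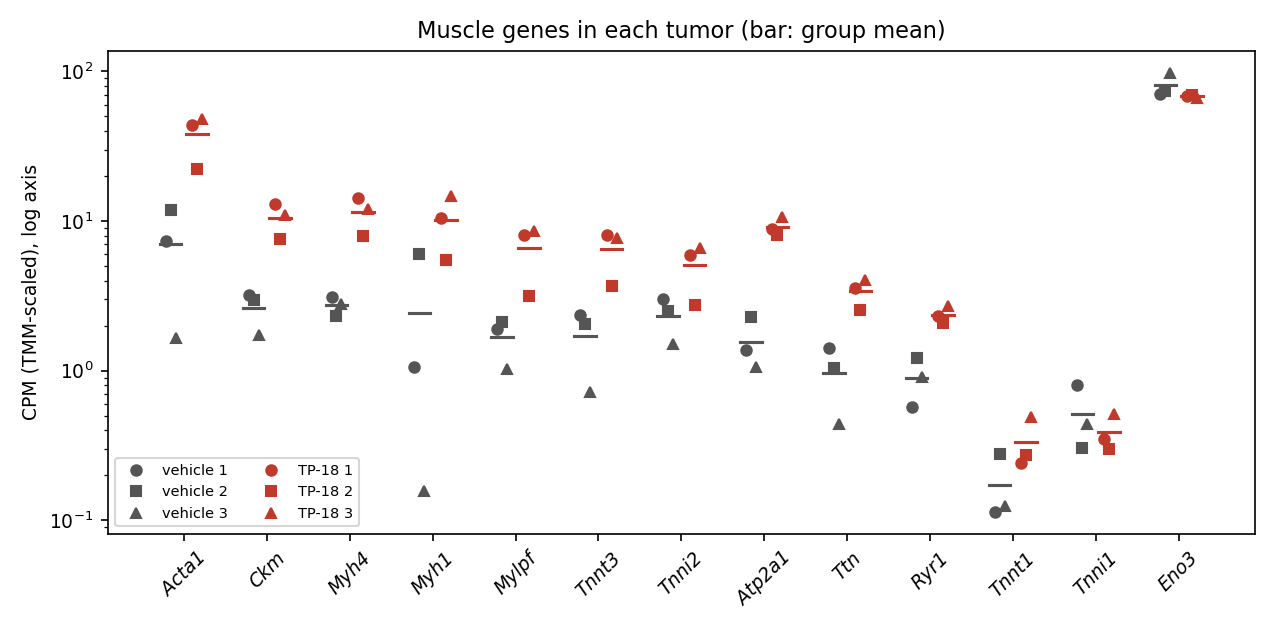
CPM of 13 muscle genes in each tumor on a log axis, with group means as bars. Myh4, Ckm and Atp2a1 separate the groups, Myh1 overlaps because vehicle 2 reaches 6.03 CPM, and the slow troponin genes Tnnt1 and Tnni1 stay under 0.8 CPM in all 6 tumors.

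The slow fiber genes were at trace level. Myh7, the slow myosin heavy chain, had 0, 2 and 0 reads in vehicle and 1, 2 and 0 in TP-18 tumors. Myl2, the slow regulatory light chain, had 1 read in each group. Tnnt1, slow troponin T, had 4, 9 and 4 reads in vehicle and 9, 10 and 19 in TP-18 tumors, which overlap, and none of these 3 genes was tested. Tnni1, slow troponin I, measured 0.797, 0.306 and 0.437 CPM in vehicle and 0.349, 0.301 and 0.513 CPM in TP-18 tumors, with vehicle 1 the highest of all 6. Its log2 change was -0.40 ± 0.49 (adjusted p = 0.617) and turned to 0.08 without vehicle 1 (adjusted p = 0.931), and neither DESeq2 nor limma-voom called it.

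Per length, fast isoforms made up most of each troponin pair in every tumor. Tnni2 took 93.2%, 96.8% and 92.6% of the summed FPKM of Tnni2 and Tnni1 in vehicle tumors 1 to 3 and 98.4%, 97.1% and 97.9% in TP-18 tumors 1 to 3. The Wilson interval at 95% from the counts was widest in vehicle 3, from 87.5% to 95.8%, and covers counting error only, as do the intervals that follow. The shares use the deposited length of Tnni1, 2655 bases, against 1150 in its longest coding transcript. A shorter length would lower the Tnni2 shares. All TP-18 shares lay above all vehicle shares, though the lowest differed from vehicle 2 by less than its interval. Tnnt3 took 96.4%, 90.5% and 88.0% of the Tnnt3 and Tnnt1 pair in vehicle and 97.7%, 94.5% and 95.3% in TP-18 tumors, which overlap. The mean log2(FPKM + 0.1) of the 12 fast genes went from -0.75 ± 0.55 (SD, n = 3) in vehicle to 1.17 ± 0.58 in TP-18 tumors, while that of the 4 slow genes was -2.68 ± 0.10 and -2.54 ± 0.17. Fast minus slow was 2.12, 2.26 and 1.41 in vehicle tumors and 3.99, 3.15 and 3.97 in TP-18 tumors, which do not overlap. Of the 4 slow genes, Myh7 and Myl2 lay at or below 0.011 FPKM in every tumor, far under the added 0.1. The slow mean could therefore hardly move, and fast minus slow mostly repeats the fast mean. The difference between groups in fast minus slow, 1.77, was not tested. On log2(FPKM + 1) it was 1.02, where the change of the fast genes was 1.05 in place of 1.92 and that of the slow genes 0.03 in place of 0.14.

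The 4 adult heavy chains differed in their mix between tumors, more so among vehicle tumors. Myh4 took 67.7% of their summed FPKM in vehicle 1 (interval 60.2% to 74.5%), 21.8% in vehicle 2 (17.8% to 26.4%) and 91.9% in vehicle 3 (84.7% to 95.8%). In TP-18 tumors 1 to 3 it took 51.2%, 53.8% and 37.3%, with intervals from 34.6% at the lowest to 58.0% at the highest. Vehicle 2 instead held mostly Myh1, at 56.4%, with Myh2 at 21.3%. Myh7 had 0 of 161 heavy chain reads in vehicle 1 and 0 of 98 in vehicle 3, which allow shares of up to 1.86% and 3.06% as 3 counts of the total, with Wilson upper bounds of 2.13% and 3.45%. It had 0 of 1255 in TP-18 3, which allows up to 0.239% in the same way, with a Wilson upper bound of 0.278%.

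Reads of these chains can be hard to tell apart. Their longest coding transcripts in GENCODE M21 were 90.4% identical between Myh1 and Myh2, 89.7% between Myh1 and Myh4 and 87.6% between Myh2 and Myh4 over aligned bases, while Myh7 was 78.4% to 78.7% identical to the others. Of all windows of 100 bases, 9.73% in Myh1, 9.17% in Myh2 and 3.85% in Myh4 occurred exactly in another gene, so the shares depend on how the authors' counting treated such reads. The 3 fast genes lie side by side on chromosome 11, with Myh2 at 67171027 to 67197517, Myh1 at 67200102 to 67224577 and Myh4 after them.

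**Figure D3:**
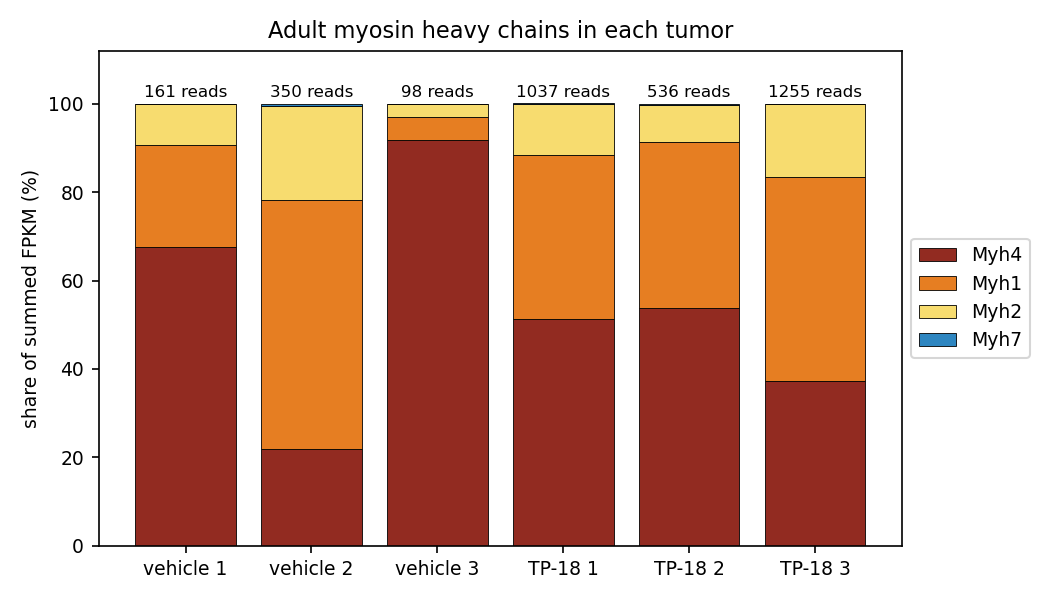
Share of the summed FPKM of Myh4, Myh1, Myh2 and Myh7 in each tumor, with the number of reads behind each bar. Myh4 ranges from 21.8% to 91.9% among vehicle tumors and from 37.3% to 53.8% among TP-18 tumors, and Myh7 is too small to see.

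Set against Acta1 in the same tumor, fast genes varied less among TP-18 tumors than among vehicle tumors. Tnni2 stood at 29.4, 26.9 and 30.1 FPKM per 100 FPKM of Acta1 in TP-18 tumors 1 to 3 and at 87.6, 45.9 and 197 in vehicle tumors 1 to 3. Pvalb stood at 4.32, 4.63 and 4.78 against 9.27, 3.88 and 25.6. Across the 12 fast genes the highest tumor exceeded the lowest by a median factor of 1.31 in TP-18 tumors (range 1.10 to 2.04) and of 4.13 in vehicle tumors (1.22 to 8.67), and the factor was larger in vehicle for all 12. Vehicle ratios rest on few reads, in vehicle 3 on 53 of Acta1, 90 of Myh4 and 48 of Tnni2, and all 12 share 1 denominator. Myl1 stayed within a narrow range in all 6 tumors, between 7.53 and 9.20.

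**Figure D4:**
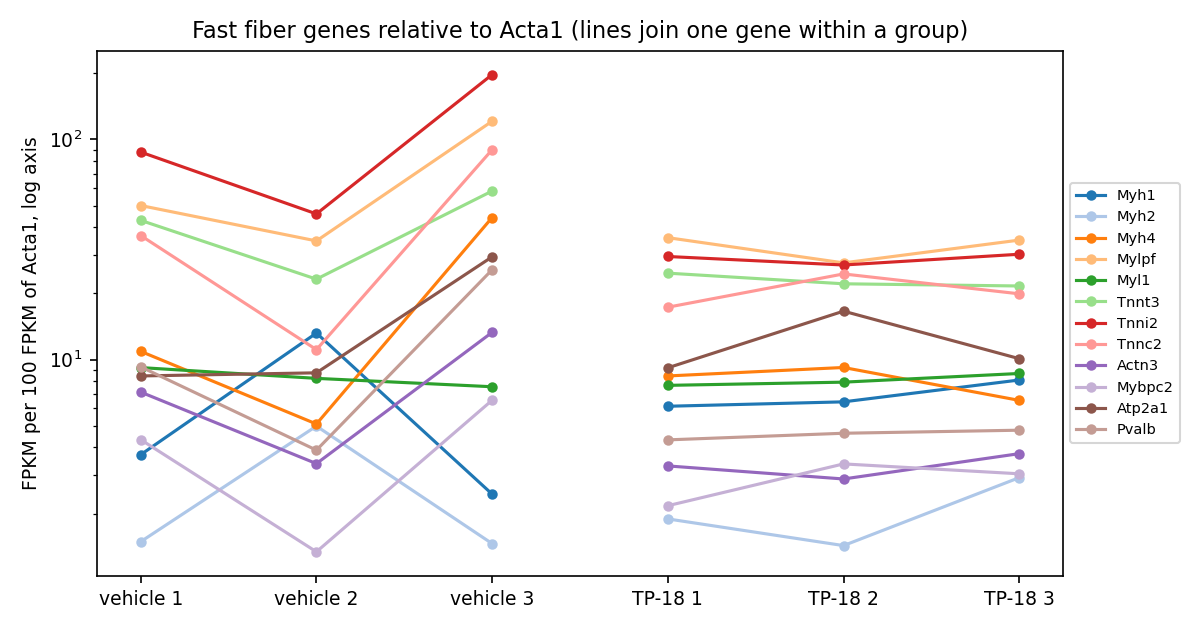
FPKM of the 12 fast fiber genes per 100 FPKM of Acta1 in each tumor, on a log axis; lines join 1 gene within a group, whose tumors have no order. The lines vary less across TP-18 tumors, and in vehicle 3 Tnni2, Mylpf and Myh4 reach 197, 121 and 44.2.

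Genes of calcium release rose where they could be tested. Ryr1 (chromosome 7, 29003340 to 29125179), the release channel of the sarcoplasmic reticulum, measured 0.569, 1.22 and 0.906 CPM in vehicle and 2.31, 2.08 and 2.72 CPM in TP-18 tumors (log2 change 1.40 ± 0.35, adjusted p = 0.0401). Cacna1s, the voltage sensor that opens it, rose by 2.47 ± 0.59 (adjusted p = 0.0339) with 14 vehicle reads and 90 TP-18 reads. Both calls were lost whichever library was left out. The other 4 had too few reads for a test. Casq1, the calcium store protein calsequestrin, had 3, 4 and 4 reads in vehicle and 22, 7 and 32 in TP-18 tumors. Trdn, triadin, which links calsequestrin to the channel, had 2, 3 and 0 against 9, 10 and 15, and Cacng1, a subunit of the voltage sensor, 4, 2 and 1 against 21, 7 and 9. Sln, sarcolipin, an inhibitor of the calcium pump, had 2, 1 and 0 against 10, 0 and 10, with no read in TP-18 2.

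Of the 6 energy genes 5 were tested and 2 rose. Ckm (Entrez 12715, chromosome 7, 19411094 to 19421583), the muscle creatine kinase that buffers ATP, measured 3.19, 2.97 and 1.72 CPM in vehicle and 12.9, 7.61 and 11 CPM in TP-18 tumors, a log2 change of 2.00 ± 0.29 with an adjusted p of 0.00734. Pygm, muscle glycogen phosphorylase, rose from 0.837 ± 0.141 to 2.22 ± 0.392 CPM (adjusted p = 0.0267). Mb, myoglobin, the oxygen store of muscle, measured 0.199, 0.521 and 0.156 CPM against 0.726, 1.20 and 1.59 CPM and missed the threshold narrowly (adjusted p = 0.0517). Pgam2, the muscle phosphoglycerate mutase, had 22 vehicle reads and 74 TP-18 reads (adjusted p = 0.0807), and Ampd1, the muscle AMP deaminase, 8 and 17 without a test.

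Eno3, the beta enolase of glycolysis that is typical of muscle, stood apart. It measured 70.8, 73.7 and 97.9 CPM in vehicle and 68.6, 69.7 and 66.5 CPM in TP-18 tumors, and in FPKM it was 13, 12.7 and 16.5 against 13.2, 13.2 and 13, above every other gene of the set in vehicle tumors and below Acta1 in TP-18 tumors. The order in TP-18 tumors rests on the deposited length of Eno3, 5457 bases, against 1564 in its longest coding transcript. By CPM, Eno3 exceeded Acta1 in every TP-18 tumor. For Eno3 in CPM every TP-18 tumor was below every vehicle tumor, but the log2 change of -0.24 ± 0.12 missed the threshold (adjusted p = 0.230). In vehicle 3, where Acta1 was lowest, Eno3 was highest.

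The tumors kept a common order across the set. Among the 36 genes other than Eno3 that were detected in all 3 TP-18 tumors, TP-18 3 was the highest treated tumor for 29 and TP-18 2 the lowest for 30. Vehicle 3 was the lowest vehicle tumor for 27 of the 36, and vehicle 1 and vehicle 2 were each the highest for 17. TP-18 2 nonetheless exceeded every vehicle tumor for 29 of all 40 genes, among them the 16 called ones.

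Calls depended on the libraries used. Myh4, Atp2a1 and Ckm were called whichever single library was left out, while the number of genes of the set called ran from 3 without TP-18 3, and 5 without either TP-18 1 or vehicle 2, to 14 without TP-18 2. Ryr1 and Cacna1s lost their calls whichever library was left out, with adjusted p-values of 0.0569 to 0.139 and 0.0625 to 0.128. Mylpf, Pvalb, Klhl41 and Pygm each lost theirs in 5 of the 6 fits, Ttn, Tcap and Des in 4, Tnnt3 and Tnnc2 in 3, Mybpc2 in 2 and Mybpc1 without TP-18 3 (adjusted p = 0.0508).

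Skin markers followed the same order as these genes within the TP-18 group. Krt5, a keratin of the basal epidermis, measured 0, 0.704 and 0.0312 CPM in vehicle and 2.77, 0 and 15.1 CPM in TP-18 tumors, and its partner Krt14 0.0285, 0.582 and 0.0312 against 2.96, 0 and 13.7 CPM. The summed level of the 9 skin genes was 1.68, 3.40 and 2.34 CPM in vehicle and 11, 1.61 and 42.4 CPM in TP-18 tumors, and in TP-18 2, 7 of the 9 were at 0, Krt5, Krt14 and Krt1 among them, against 4 to 6 in vehicle tumors, 1 in TP-18 1 and 0 in TP-18 3. By edgeR 0 of the 4 tested skin genes were called, with 1 at an unadjusted p under 0.05, and DESeq2 and limma-voom also called 0. Krt10, a keratin of the upper epidermis singled out after its values were seen, measured 1.37, 1.99 and 2.22 CPM in vehicle and 3.12, 1.48 and 5.64 CPM in TP-18 tumors. In TP-18 2, Krt5, Krt14 and Krt1 were at 0 and Krt10 was within the vehicle range. In the same tumor 29 of the 40 muscle genes were above every vehicle tumor, among them Acta1 (22.3 CPM), Myh4 (7.88) and Atp2a1 (8.07). Others were not, such as Myh1 (5.50 CPM against 6.03 in vehicle 2) and Tnni2 (2.76 against 2.99 in vehicle 1). How skin and muscle levels relate was not tested. With TP-18 1 and TP-18 3 both left out, edgeR called 0 genes of the set, 8 were higher at an unadjusted p under 0.05, and Atp2a1 had an adjusted p of 0.0839 and Myh4 of 0.124; this fit holds 1 treated tumor, which is assumed to vary like the vehicle tumors.

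The 10 adipocyte genes summed to 44.6, 38.7 and 23.2 CPM in vehicle and 56.3, 83.7 and 83.3 CPM in TP-18 tumors, carried by Fabp4 and Lipe, which other cells also make. Of the 4 tested, edgeR called 0, with 2 at an unadjusted p under 0.05, DESeq2 called 3 and limma-voom 1. Of its fat-specific genes, singled out after their values were seen, Adipoq was at 0.323, 0.0821 and 1.56 CPM and Cfd at 3.17, 0.411 and 8.97 CPM in TP-18 tumors 1 to 3, lowest again in TP-18 2, against 0.122 to 0.199 and 0.562 to 1.07 CPM in vehicle tumors. The 8 red cell genes summed to 66.3, 183 and 395 CPM in vehicle and 14.8, 33.9 and 17.6 CPM in TP-18 tumors, and were highest in vehicle 3, where most muscle genes were lowest. Of 5 tested, edgeR called 4 lower, DESeq2 5 and limma-voom 0, and the 4 calls were lost without vehicle 2 or any 1 TP-18 library. The 10 T cell genes summed to 34, 16.9 and 17.2 CPM in vehicle and were nearly level in TP-18 tumors at 90.4, 97 and 92.9 CPM, and all 10 were called higher. Among these, Cd4 lost its call with the replicate number as a block (adjusted p = 0.116) and Cd8a without a count filter (adjusted p = 0.103). Of 5 tested peripheral nerve genes 1 was called higher, Mbp, a myelin protein (log2 change 1.18, adjusted p = 0.0233), which lost its call without vehicle 2, TP-18 2 or TP-18 3 (0.0696 to 0.0918). The part of these tissues in the muscle result was not tested.

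**Figure D5:**
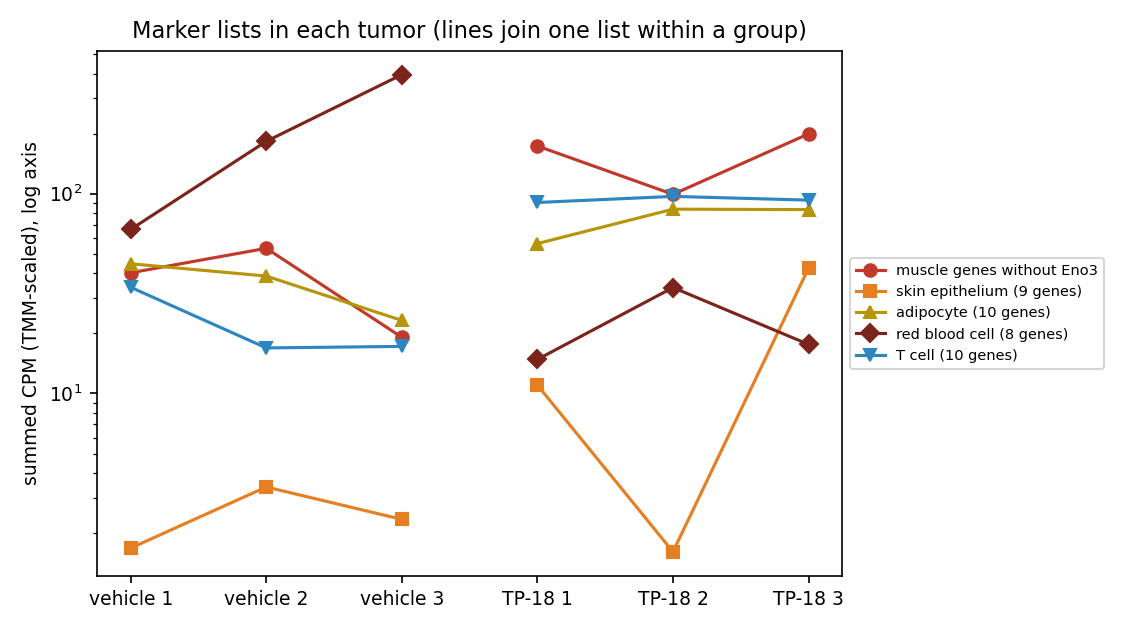
Summed CPM of the muscle genes without Eno3 and of 4 marker lists in each tumor, on a log axis; lines join 1 list within a group, whose tumors have no order. Muscle and skin genes dip together in TP-18 2, whereas T cell genes stay between 90.4 and 97 CPM across TP-18 tumors.

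Muscle genes outside the set gave fewer calls, and many had too few reads for a test. Groups did not overlap, with TP-18 higher, for 7 of 14 tested sarcomere, 1 of 6 excitation and 3 of 8 energy genes. With untested genes counted, these were 13 of 25, 4 of 12 and 6 of 16, and the reverse held for 0, 0 and 2. The untested genes had few reads, and no share over all genes is given here for these wider counts or for the reverse. Of all tested genes, 18.0% did not overlap with TP-18 higher, and 7.09% were called higher. Of 25 further sarcomere and Z-disc genes, 14 were tested and 3 called higher, with a median log2 change of 0.51: Myom2, an M-band crosslinker (2.60 ± 0.57), Nrap, which helps assemble myofibrils (1.80 ± 0.47), and Cmya5, myospryn (1.61 ± 0.44). With 1 library left out, Myom2 was called without vehicle 1 or TP-18 2 but lost in the other 4 fits (adjusted p = 0.0501 to 0.104), Nrap was lost in all but that without TP-18 2 (0.0644 to 0.156) and Cmya5 in all 6 (0.0632 to 0.163). DESeq2 called 4 of the list higher and limma-voom 2. Of 7 further slow fiber genes, 4 were tested and 0 called by edgeR, with 1 higher and 1 lower at an unadjusted p under 0.05, and DESeq2 and limma-voom called 0. The most abundant of these, Myl6b, a light chain also made outside muscle, measured 15.9, 18.2 and 15.7 CPM in vehicle and 11.6, 13.9 and 12.4 CPM in TP-18 tumors (adjusted p = 0.0736), and Tnnc1, slow and cardiac troponin C, overlapped (log2 change -0.61, adjusted p = 0.373). The other 2, singled out after their values were seen, had positive estimates. Myoz2, a Z-disc protein of slow fibers, measured 0.285, 0.459 and 0.312 CPM in vehicle and 1.13, 0.575 and 1.03 CPM in TP-18 tumors, which do not overlap (log2 change 1.36 ± 0.43, adjusted p = 0.0744). Csrp3, muscle LIM protein, overlapped (log2 change 2.36 ± 1.01, adjusted p = 0.168). Of 12 excitation and calcium genes, 6 were tested and 0 called by edgeR, DESeq2 or limma-voom, with 1 at an unadjusted p under 0.05; the most abundant were Cacna2d1, a calcium channel subunit made in many tissues (adjusted p = 0.837), and Srl, sarcalumenin (adjusted p = 0.108). Of 16 energy genes, 8 were tested: Apobec2, a muscle deaminase family protein, rose by 3.33 ± 0.69 (adjusted p = 0.0232), and Cox6a2, a cytochrome oxidase subunit of striated muscle, fell by 1.13 ± 0.30 on the log2 scale (adjusted p = 0.0471), from 7.68, 4.81 and 6.37 to 2.42, 2.16 and 4.03 CPM. Apobec2 lost its call without vehicle 2, TP-18 2 or TP-18 3 (adjusted p = 0.0631 to 0.0905), and Cox6a2 without any library but TP-18 3 (0.0842 to 0.138) and by limma on log2(FPKM + 1) and log2(FPKM + 0.1) (0.0638 and 0.0616).

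Of 15 genes of developing or regenerating muscle, 2 were tested, and the other 13 had too few reads. Chrna1, the alpha subunit of the muscle acetylcholine receptor, was lower in TP-18 tumors: 9.71, 10 and 9.40 CPM in vehicle against 2.93, 2.74 and 3.13 CPM, a log2 change of -1.73 ± 0.16 (adjusted p = 0.00182). The call on Chrna1 held whichever single library was left out. Its counts summed to 970 in vehicle and 331 in TP-18 tumors. Chrnd and Chrng, other subunits of this receptor family, had 2 and 1 reads in vehicle and 2 and 3 in TP-18 tumors. Both were singled out after their values were seen, and the source of the Chrna1 reads was not tested. Myl4, an embryonic and atrial light chain, measured 1.91, 2.39 and 0.968 CPM in vehicle and 2.72, 1.45 and 2.67 CPM in TP-18 tumors, which overlap (adjusted p = 0.577). The myogenic factors, singled out after their values were seen, had few reads: Myod1 had 0 in vehicle and 1 in TP-18 tumors, Myog 1 and 10, Myf6 1 and 15 and Myf5 0 and 1. Among cardiac genes, Tnnt2, cardiac troponin T, was the only one tested of 5 (log2 change -1.12, adjusted p = 0.0723), and DESeq2 called it lower, and Myh6 had 1 read in each group. Of 6 tested smooth muscle genes 1 was called: Smtn, smoothelin, fell by 0.43 ± 0.10 on the log2 scale (adjusted p = 0.0309), a call lost without any library but vehicle 1 (adjusted p = 0.0501 to 0.101). The other 5 had positive estimates, 2 of them at an unadjusted p under 0.05: Myh11, the smooth muscle heavy chain (1.26 ± 0.53), and Tagln, transgelin (1.13 ± 0.46), each with an adjusted p of 0.156 and singled out after their values were seen. DESeq2 called 1 higher and 1 lower, and limma-voom 0 higher and 1 lower. Acta2, smooth muscle actin, measured 11.4, 11.3 and 18.3 CPM in vehicle and 9.81, 44.6 and 26.6 CPM in TP-18 tumors, highest in TP-18 2.

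Exons of 10 of the 40 genes overlap another gene of the count table on the opposite strand, among them Ckm, Atp2a1, Tnnc2, Des, Mb, Neb and Myh1. Whether counting used strand is not given in the sources used here, so reads within the overlaps may not be told apart. The extent of the overlaps was not measured.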

How the data were processed

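RNA sequencing of 6 CT26 tumors, 3 per group by the labels' treatment field, was used. The submitters' processing notes name fastp, HISAT2, HTSeq and GRCm38; tool versions, strandedness and the treatment of multi-mapped reads are not stated in the labels. The deposited counts are whole numbers per gene without normalization. The deposited FPKM values were made by the authors from the counts, a whole-number gene length and the library's total count, which was checked in all 23122 genes to within 0.01%.

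The 40 genes, their roles and all lists were chosen with earlier results of these data known. Of 183 listed symbols, 3 (Pax7, Myl7 and Ryr2) had no match and are not analysed here. Tests used R 4.3.3 and edgeR 4.0.16: filterByExpr (minimum count 10, minimum total 15), TMM scaling, and the robust quasi-likelihood F test, two-sided, adjusted by Benjamini and Hochberg over 14189 genes, with calls at an adjusted p under 0.05. Log2 changes are TP-18 minus vehicle, with a prior count of 0.125, and standard errors come from the F statistic. Levels between tumors are TMM-scaled CPM and between genes FPKM. Alternatives were RLE scaling, other filters, DESeq2 1.42.0, limma-voom and limma on log2 FPKM (limma 3.58.1), a replicate block and leaving out each library; leaving out TP-18 1 and 3 together was chosen after seeing the data. All 40 genes could be named; of other lists, up to 4 called genes by smallest p, filled to 2 by abundance, except where stated. The procedure was tested on simulated data, in which 100 genes were changed 2-fold and 100 were changed 4-fold. It recovered 63 and 84 of these, with 18 false calls among 14272 tested genes. Positions are those of RefSeq on GRCm38.p6.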

Additional observations from a re-analysis of the deposited data

How the results depend on the processing

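The number of genes of the set called higher, 16, was 13 to 23 under RLE scaling, no count filter, a filter of 1 CPM in 3 libraries, DESeq2, limma-voom and limma on log2(FPKM + 1) or log2(FPKM + 0.1), and 6 on log2(FPKM + 1) without a filter. It was 3 to 14 with 1 library left out and 0 without both TP-18 1 and TP-18 3; each such fit holds fewer tumors. Over all genes, 1006 were called higher and 747 lower. DESeq2 called 1464 higher and 1240 lower, and limma-voom 1027 higher and 731 lower. Lower calls were 238, 250 and 78 by limma on log2(FPKM + 1), log2(FPKM + 0.1) and log2(FPKM + 1) without a filter, where higher calls were 1382, 1401 and 662. With 1 library left out, higher calls ran from 388 to 1216 and lower calls from 111 to 1023, and without both TP-18 1 and TP-18 3 they were 184 and 9.

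Replicate numbers are not stated to pair tumors, and the correlation over genes between the deviations of same-numbered tumors was 0.255, -0.0989 and -0.0664, with 2 of 6 tumors correlating best with their own number. With the number as a block, 547 genes were called higher and 231 lower, and 5 of the set higher. Of the genes outside the set, Cmya5 (adjusted p = 0.0822), Nrap (0.108), Cox6a2 (0.0668), Apobec2 (0.0671), Smtn (0.0568), Hba-a1 (0.06) and Cd4 (0.116) lost their calls with the block. The difference between groups in fast minus slow genes, 1.77, was 1.02 on log2(FPKM + 1), 1.66 with 11 slow genes, 1.90 on log2(CPM + 0.1), 1.51 to 2.05 with 1 library left out and 1.22 without both TP-18 1 and TP-18 3. The log2 change of Tnni1 ran from -0.661 to 0.081 with 1 library left out, the latter without vehicle 1 (adjusted p = 0.931). Of 464 values of tested genes of the set under all alternatives, 341 kept their direction and side of the threshold, 97 lost a call, 25 gained 1 and 1 turned. The cause of these shifts was not tested. Depth limits the slow genes and the 10 untested ones, whose vehicle reads summed to at most 17.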
